A study of Mus musculus with 2 samples.

Results

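The barcodes described here were those in which transcripts of the mitochondrial genome, the 13 genes whose symbols begin with mt-, made up at least 10% of all unique molecular identifiers (UMIs, the tags that mark single captured molecules) while more than 500 genes were detected. They came from droplet-based single-cell RNA sequencing of pancreatic islets, with 1 library from wild-type (WT) and 1 from Npc1 knockout (Npc1-/-) mice. The members were thus selected on the measured mitochondrial share and gene number of each barcode. The rule took 2101 of 16215 barcodes in all, 1395 of 8569 in the WT library and 706 of 7646 in the Npc1-/- library. The mice were 2 weeks old and on a C57BL/6J background, the knockout was carried in the germ line and therefore in every cell type, and the WT animals were littermates. Each library pooled the islets of 3 female mice, dissociated with trypsin. With 1 library per genotype there were no replicates, so no test between genotypes was possible, and all intervals given are exact 95% intervals for counting error only. The WT library held 114324626 UMIs and the Npc1-/- library 127122035, with medians of 6713 and 11657.5 UMIs per barcode, and the libraries shared 12 barcode sequences. The study's own cell filter kept barcodes under 10% mitochondrial UMIs, so the barcodes described here lay outside it.

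The mouse mitochondrial genome encodes 13 subunits of the respiratory chain and of ATP synthase, and their polyadenylated transcripts stay inside the organelle, whereas mRNA made in the nucleus is exported to the cytosol to be translated and a few long non-coding RNAs remain in the nucleus. A high share of mitochondrial UMIs is widely used as a mark of damaged cells, and it is also known to be higher in intact cells that are rich in mitochondria. Pancreatic beta cells secrete insulin from dense granules, rely on mitochondrial ATP production to couple glucose to secretion, and devote much of their mRNA to the insulin genes Ins1 and Ins2. NPC1 exports cholesterol from lysosomes.

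The targeted gene was measured first. Npc1 gave 1000 UMIs in the WT library, or 9.42 counts per 1e6 nuclear-encoded UMIs (CPM, the scale of all gene levels here, with the 13 mitochondrial genes left out of the total), with an interval of 8.85 to 10.0. In the Npc1-/- library it gave 495 UMIs, or 4.17 CPM with an interval of 3.81 to 4.56. Npc1 was therefore lower in the library labelled Npc1-/- but not at 0, and the position of the deleted part relative to the 3′ tags was not examined. Among the high mitochondrial barcodes alone, Npc1 stood at 26.9 CPM (21.8 to 32.7, 99 UMIs) in WT and at 9.49 CPM (5.95 to 14.4, 22 UMIs) in Npc1-/-, against 8.72 and 4.07 CPM in the barcodes under 10%.

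Among barcodes with more than 500 genes, the share with high mitochondrial content was 21.3% in WT (20.4 to 22.4, 1395 of 6534) and 12.7% in Npc1-/- (11.9 to 13.6, 706 of 5544), and the ratio of Npc1-/- over WT was 0.596 (0.544 to 0.653). Among the barcodes with 500 or fewer genes the order was the other way round, at 60.6% in WT and 80.4% in Npc1-/-. Without any minimum on genes the ratio was 1.02 (0.966 to 1.08), so the difference in share between the libraries depended on how many genes a barcode had to show. The high mitochondrial barcodes held few of the molecules, 5.19% of all UMIs in WT and 2.68% in Npc1-/-.

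Most selected barcodes did not sit close to the limit. The median mitochondrial share was 51.8% in WT (quartiles 36.6 and 60.8, highest 80.6) and 49.3% in Npc1-/- (quartiles 22.7 and 61.8, highest 85.2). In steps of 5%, counts above the limit were 122 in WT and 104 in Npc1-/- at 10 to 15%, and a second mode stood at 55 to 60% in WT with 209 barcodes and at 65 to 70% in Npc1-/- with 84. Just inside the limit, at 10 to 11%, there were 44 and 35 barcodes with a median of 13358.5 and 14699 nuclear-encoded UMIs. Just outside it, at 9 to 10%, there were 53 and 57 barcodes with 10873 and 12986. At the limit on genes, the 122 and 106 selected barcodes with 501 to 550 genes had median mitochondrial shares of 60.4% and 63.3%, and the 126 and 108 with 451 to 500 genes had 63.1% and 64.4%. The barcodes near 10% were thus deep and those near 500 genes shallow, and the limit on genes fell inside the shallow mode.

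**Figure D1:**
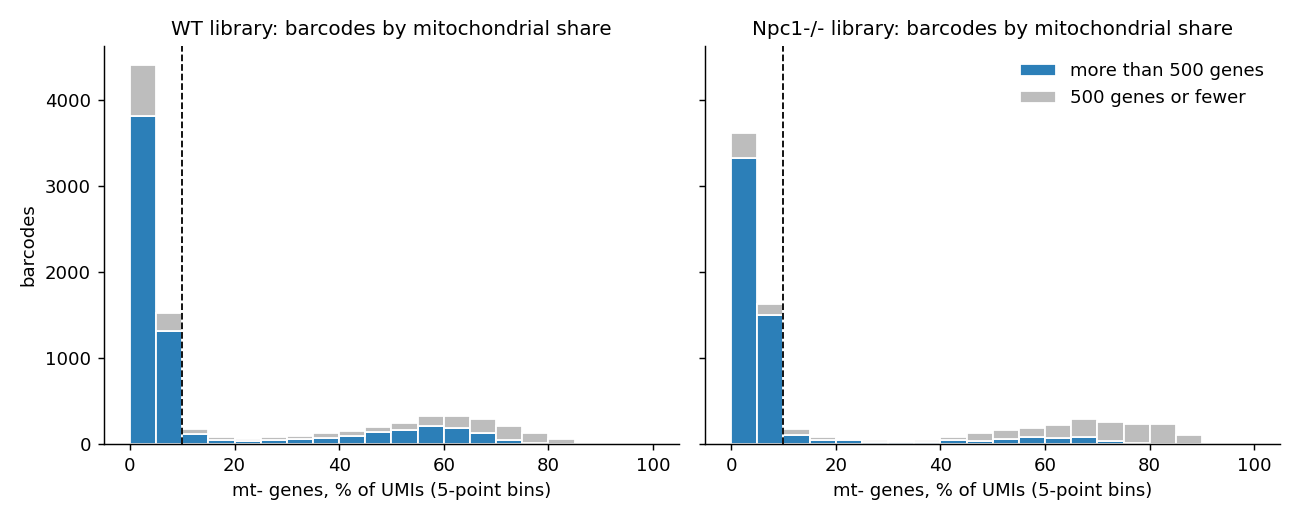
Number of barcodes (y axis) in each 5% step of mitochondrial share (x axis, percent of UMIs) for the WT and Npc1-/- libraries, with blue for more than 500 genes, grey stacked on it for 500 or fewer, and a dashed line at the 10% limit. Above the limit the blue counts first go down and then form a second mode, at 55 to 60% in WT (209 barcodes) and at 65 to 70% in Npc1-/- (84 barcodes).

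The median number of mitochondrial molecules in these barcodes was above that of barcodes under 10%, and it was the nuclear-encoded molecules that were few. The 13 mitochondrial genes gave a median of 1511 UMIs per selected barcode in WT and 1463.5 in Npc1-/-, against 748 and 954 in all barcodes under 10%. Insulin-leading barcodes under 10%, defined below, had medians of 1272 and 1412. Nuclear-encoded genes gave a median of 1290 and 1172 UMIs, against 17550 and 21210 in all barcodes under 10%. Genes detected were 753 and 688.5, against 3757 and 4097.5. The mitochondrial share is formed from these UMI totals, so this contrast describes the selection and is no independent result. Of the selected barcodes, 88.7% in WT and 81.0% in Npc1-/- had under 3000 nuclear-encoded UMIs, a limit chosen after the values were seen. Such shallow barcodes made up 25.01% of all barcodes with more than 500 genes in WT and 14.2% in Npc1-/- (ratio 0.567, interval 0.520 to 0.618). Since most shallow barcodes were themselves selected and nuclear-encoded UMIs enter the rule, this ratio is no independent measure of the difference in share. Within shallow barcodes the high mitochondrial share was 75.8% (73.6 to 77.8, 1238 of 1634) in WT and 72.8% (69.5 to 75.9, 572 of 786) in Npc1-/-, and the ratio of 0.961 had an interval of 0.868 to 1.06 that held 1. The ratio was 1.13 (0.814 to 1.58) at 3000 to 10000 nuclear-encoded UMIs and 0.797 (0.56 to 1.13) from 10000 upwards. Over all classes together, no difference between the libraries was detectable within these steps of depth. In the insulin class under 3000, whether the interval held 1 depended on the denominator of the hormone share, as given with the leading hormones. These intervals cover counting error only.

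**Figure D2:**
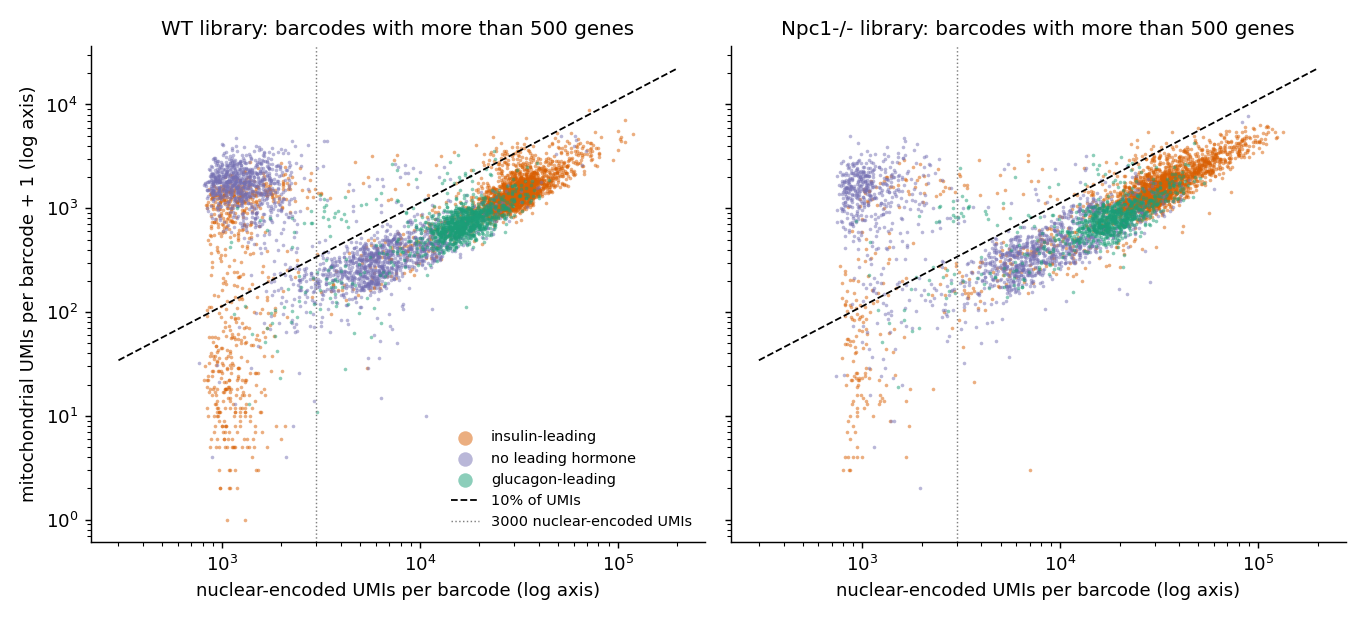
Mitochondrial UMIs (y axis, log scale) against nuclear-encoded UMIs (x axis, log scale) for each barcode with more than 500 genes in the WT and Npc1-/- libraries, coloured by leading hormone, with a dashed line at 10% of UMIs (1 UMI was added to each mitochondrial count). Most barcodes above the dashed line lie under 3000 nuclear-encoded UMIs (88.7% in WT, 81.0% in Npc1-/-) with a median of 1511 and 1463.5 mitochondrial UMIs for all selected barcodes, against 748 and 954 under 10%.

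The genes that mark the group, mt-Co1 (a catalytic subunit of cytochrome c oxidase), mt-Nd1 (a subunit of complex I) and mt-Cytb (the cytochrome b of complex III), were detected in every selected barcode. Median mt-Co1 was 7.91% of UMIs in WT and 7.30% in Npc1-/-, against 0.664% and 0.737% under 10%. Median mt-Nd1 was 2.76% in both libraries against 0.242% and 0.258%, and median mt-Cytb was 5.63% and 5.30% against 0.476% and 0.488%. These values follow from the selection. What the rule did not use was the share of each gene within the mitochondrial UMIs, and this composition differed little for the abundant transcripts. In insulin-leading barcodes, defined next, mt-Co3 made up 21.0% of mitochondrial UMIs in the selected WT barcodes against 19.8% under 10%, and 21.3% against 20.01% in Npc1-/-. mt-Atp6, a subunit of ATP synthase, made up 18.3% against 17.7% and 17.8% against 17.1%. mt-Co1 made up 15.3% against 16.6% and 16.5% against 18.1%, mt-Cytb 11.2% against 12.03% and 11.1% against 11.4%, and mt-Nd1 5.45% against 5.34% and 5.38% against 5.32%. The proportions of these abundant mitochondrial transcripts were therefore within about 10% of those in ordinary insulin cells, with ratios of 0.923 and 0.913 for mt-Co1 and 1.06 in both libraries for mt-Co3. Scarcer ones departed further, with mt-Nd6 at 1.73 and 1.84 times its share under 10%, mt-Atp8 at 0.825 and 0.759 times and mt-Nd4l at 0.843 and 0.816 times. In barcodes without a leading hormone some departures were larger, with mt-Nd1 at 0.778 and 0.807 times and mt-Co3 at 1.11 and 1.14 times its share under 10%. That of mt-Co1 was smaller there, at 0.972 and 0.971 times, and mt-Nd6 went the other way, at 0.562 and 0.711 times. The barcodes under 10% in this class were largely other cell types, so these ratios also compare cell types. Beside insulin-leading barcodes under 10%, mt-Nd6 made up 0.0278% against 0.0136% in WT and 0.0384% against 0.0151% in Npc1-/-. By the same comparison mt-Nd1 made up 5.30% against 5.34% and 5.69% against 5.32%.

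Each barcode was assigned a leading hormone, the largest of Ins1 plus Ins2, Gcg (glucagon, the alpha cell hormone), Sst (somatostatin, the delta cell hormone) and Ppy plus Pyy (pancreatic polypeptide and peptide YY, here PP) where it reached 10% of all UMIs. Of the selected barcodes, 445 in WT (31.9%) and 140 in Npc1-/- (19.8%) led with insulin, 54 (3.87%) and 45 (6.37%) with glucagon, 21 and 25 with PP, and 6 and 8 with somatostatin. The largest group, 869 in WT (62.3%) and 488 in Npc1-/- (69.1%), reached 10% with no hormone, against 23.5% and 21.9% of the barcodes under 10%. The high mitochondrial share among insulin-leading barcodes was 16.6% (15.2 to 18.0) in WT and 5.77% (4.87 to 6.77) in Npc1-/-, with a ratio of 0.348 (0.286 to 0.422). Among glucagon-leading barcodes it was 4.82% and 4.90%, with a ratio of 1.02 (0.669 to 1.54), and among PP-leading barcodes 4.69% and 5.03%, with a ratio of 1.07 (0.577 to 2.02). Somatostatin-leading barcodes gave a ratio of 1.75 with an interval of 0.531 to 6.11 that the few barcodes leave wide. In barcodes without a leading hormone it was 41.8% and 31.6%, a ratio of 0.754 (0.674 to 0.844). Insulin-leading barcodes were thus selected more often than glucagon- or PP-leading barcodes in WT, and the interval of their ratio between libraries did not overlap those of the glucagon and PP classes. With the leading hormone set at 10% of nuclear-encoded UMIs the insulin ratio was 0.527 (0.475 to 0.584), which overlapped that of PP (0.945, 0.524 to 1.71) but not that of glucagon (0.973, 0.649 to 1.45).

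The insulin ratio also depended on depth and on the denominator. Among insulin-leading barcodes under 3000 nuclear-encoded UMIs, 59.2% in WT (389 of 657) and 45.0% in Npc1-/- (90 of 200) were high, with a ratio of 0.76 (0.597 to 0.958). Mitochondrial UMIs enter the total against which a hormone must reach 10%, so a barcode at a high mitochondrial share needs a larger part of its nuclear-encoded UMIs to be insulin. With the hormone share taken over nuclear-encoded UMIs, 788 of the 869 WT barcodes without a leading hormone (90.7%) and 386 of the 488 in Npc1-/- (79.1%) led with insulin. Insulin-leading barcodes then made up 88.4% and 74.5% of the selected barcodes, and their high share was 35.5% and 18.7%, a ratio of 0.527 (0.475 to 0.584). By this definition the shallow insulin-leading barcodes were high at 81.2% (1174 of 1445) in WT and 80.8% (476 of 589) in Npc1-/-, with a ratio of 0.995 (0.892 to 1.11).

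**Figure D3:**
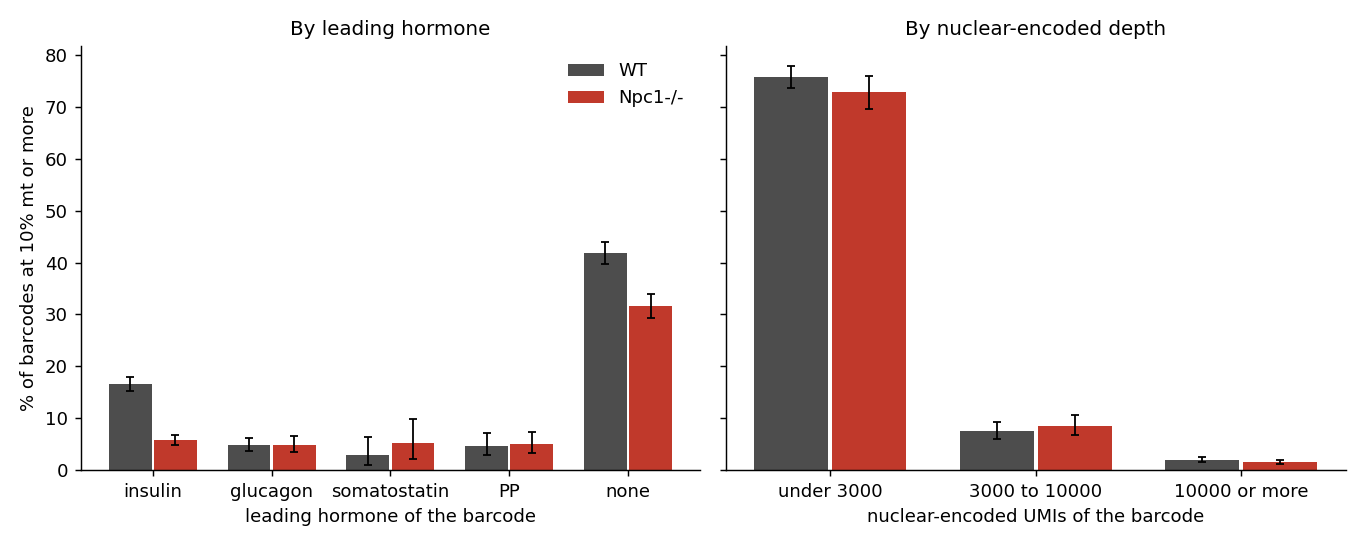
Share of barcodes with at least 10% mitochondrial UMIs (y axis, percent, bars with exact 95% intervals) by leading hormone and by nuclear-encoded UMIs (x axes) in the WT and Npc1-/- libraries. The insulin class stands at 16.6% and 5.77%, the glucagon class at 4.82% and 4.90%, and shallow barcodes at 75.8% and 72.8%.

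Second hormones at 10% of all UMIs were rare in the selected insulin-, glucagon- and PP-leading barcodes. None of the 445 WT and 140 Npc1-/- insulin-leading barcodes held another hormone at 10% or more, against 50 of 2241 and 76 of 2288 under 10%. Among glucagon-leading selected barcodes 4 of 54 and 1 of 45 did so, among PP-leading ones 1 of 21 and 2 of 25, and among somatostatin-leading ones 4 of 6 and 3 of 8. The small somatostatin class thus held second hormones often and was not compared further. Mitochondrial UMIs enter the total of this 10% limit. At a high mitochondrial share a second hormone therefore needs a larger part of the nuclear-encoded UMIs, so the rule itself lowers these counts in the selected barcodes.

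Insulin transcripts took a smaller part of the nuclear-encoded UMIs in the selected insulin-leading barcodes, with no steady order above 20%. Ins1 and Ins2 together made up 53.7% of nuclear-encoded UMIs in WT insulin-leading barcodes under 10% mitochondrial share, 52.4% at 10 to 20%, 29.5% at 20 to 30%, 24.2% at 30 to 50% and 26.3% from 50%. In Npc1-/- the values were 51.5%, 50.03%, 40.4%, 30.1% and 31.7%, of which the 20 to 30% step rested on 19 barcodes. These sums are carried by deep barcodes. In the median barcode of WT insulin was at 54.6% under 10%, 43.5% at 10 to 20%, 18.03% at 20 to 30%, 21.3% at 30 to 50% and 25.5% from 50%, lowest in the middle step. In Npc1-/- these medians were 53.0%, 39.6%, 27.9%, 23.2% and 28.4%. In selected barcodes without a leading hormone insulin made up 15.0% of nuclear-encoded UMIs in WT and 10.8% in Npc1-/-, against 1.99% and 1.17% under 10%, and 19.8% and 16.5% in those from 50% upwards. The rule sets much of this order, since the limit on a hormone is a share of all UMIs and allows more insulin per nuclear-encoded UMI at a higher mitochondrial share, and the barcodes under 10% in this class were largely other cell types.

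Per barcode, the classes of RNA differed to very different extents. In WT insulin-leading barcodes the median barcode held 289 insulin UMIs against 15816 under 10%, 29 UMIs of cytosolic ribosomal protein genes against 1059, and 10 UMIs of genes for folding and translocation in the endoplasmic reticulum (ER) against 249. Malat1, a long non-coding RNA held in nuclear speckles, had a median of 61 UMIs against 163, and the 13 mitochondrial genes 1265 against 1272. In Npc1-/- the same medians were 558 against 15700 for insulin, 40 against 1191 for ribosomal protein genes, 23 against 225 for ER genes, 69.5 against 186 for Malat1 and 1473 against 1412 for mitochondrial genes. Mitochondrial RNA was thus level with that of ordinary insulin cells and Malat1 lower by less than 3-fold, while insulin, ribosomal protein and ER transcripts were lower by more than an order of magnitude in WT. Mitochondrial and nuclear-encoded totals both enter the rule. Few nuclear-encoded UMIs beside this level of mitochondrial RNA therefore describe the selection and are no independent result.

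Nuclear-encoded levels were then compared within insulin-leading barcodes as summed UMIs, with a gene counted where its CPM ratio to the barcodes under 10% was at least 2-fold above or below that of the median gene. In WT 416 of 5640 genes were higher (7.38%) and 183 lower (3.24%), and in Npc1-/- 69 of 5327 were higher (1.3%) and 67 lower (1.26%). Of 4987 genes measured in both libraries, 31 were at least 2-fold higher in both, 20 lower in both and none in opposite directions. The ratios were centred on the median gene, which itself stood 0.53 higher on the log2 scale in WT and 0.30 in Npc1-/-, beside the smaller part of the total taken by insulin. Deep barcodes dominated these sums. The 40 WT and 29 Npc1-/- insulin-leading barcodes with 10000 or more nuclear-encoded UMIs held 63.6% and 74.0% of the summed UMIs, and the counts changed with depth and threshold as given in the closing part.

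The long RNAs that remain in the nucleus were the group most often higher. All 8 measured members were at least 2-fold higher in WT (median log2 ratio 1.51) and 3 of 7 in Npc1-/- (0.95), none was lower, and their summed level was 29561 CPM against 8198 in WT and 19059 against 8244 in Npc1-/-. These counts include Gm26917 (log2 2.08 in WT and 1.37 in Npc1-/-), whose level is uncertain for the reason given with the highest genes. Malat1 stood at 23043 CPM against 6591 in WT, a log2 ratio of 1.28 (1.26 to 1.29), and at 15066 against 6599 in Npc1-/-, 0.89 (0.86 to 0.91). Meg3, a maternally expressed long RNA, stood at 3532 against 878 CPM (log2 1.48) and 2130 against 893 (0.95). Xist, which coats the inactive X chromosome of female cells, stood at 1661 against 438 CPM (1.39) and 1085 against 425 (1.05), and Neat1, the scaffold of nuclear paraspeckles, at 157 against 50.4 CPM (1.11) and 150 against 57.1 (1.09). By steps of mitochondrial share the list reached 12271 CPM at 10 to 20%, 76593 at 20 to 30%, 74591 at 30 to 50% and 52810 from 50% in WT, and 12465, 38783, 63040 and 40905 CPM in Npc1-/-. The levels of this group were therefore highest at intermediate shares and not at the top of the range. With the barcodes under 10% weighted to the depth of the selected ones, the list's median ratio was 0.21 in WT and 0.27 in Npc1-/-, and that of Malat1 in WT was -0.00097, on the other side of the median gene.

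Several of the 10 genes with the highest ratios in both libraries were long non-coding RNAs. Tsix stood at 43.0 CPM against 5.79 in WT (log2 2.37, interval 1.97 to 2.74) and at 24.4 against 5.13 in Npc1-/- (1.98, 1.27 to 2.56). It lies antisense to Xist on the X chromosome (mm10, chrX:103431517-103484957, plus strand), so its reads and those of Xist cannot be told apart unless the counting used strand. Gm26917, Gm42418 and AY036118 (log2 2.08, 1.44 and 1.42 in WT, 1.37, 1.33 and 1.16 in Npc1-/-) are annotated as long non-coding RNAs side by side on chromosome 17 between positions 39843013 and 39848788, over or next to an annotated ribosomal RNA gene. Gm42418 and AY036118 overlap each other on opposite strands, and the levels of all 3 are uncertain. Gm26917 was also counted in the list of nuclear-retained RNA. Gm42418 alone stood at 15813 CPM against 4036 in WT and 11932 against 3856 in Npc1-/-. Under 3000 nuclear-encoded UMIs its order turned, at 33580 CPM in the selected barcodes against 35700 in WT and 32211 against 33540 in Npc1-/-. Lars2, the mitochondrial leucyl-tRNA synthetase, stood at 599 CPM against 94.7 (2.13, 2.03 to 2.23) and 487 against 102 (1.95, 1.81 to 2.08). The remaining genes were 2610037D02Rik (1.41 and 1.31), the calcium channel subunit Cacna1c (1.40 and 1.18), Zfr2 (1.32 and 1.25), Olfr1322 (1.25 and 1.44) and the centrosomal gene Cntrob (1.22 and 1.23).

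The 10 genes with the lowest ratios began with Sst. It stood at 437 CPM against 2105 in WT (log2 -2.80) and 207 against 2536 in Npc1-/- (-3.91). These are sums, and the median barcode did not hold less Sst among the selected ones. There Sst was 0.00426% of nuclear-encoded UMIs against 0.00361% in WT and 0.0108% against 0.00561% in Npc1-/-. Under 3000 nuclear-encoded UMIs the order turned, with Sst at 1236 CPM in the selected barcodes against 386 in WT and at 954 against 554 in Npc1-/-. Ube2c, which acts in the exit from mitosis, gave -1.96 and -3.32, the latter from 3 UMIs. The microtubule genes Stmn1 (-1.25 and -2.61), Tuba1b (-1.29 and -1.60) and Tubb5 (-1.36 and -1.18), the chromatin gene Hmgb2 (-1.24 and -1.61) and the kinetochore gene Spc24 (-1.41 and -1.27) were lower in both libraries. Cd79a, part of the B cell receptor and also a member of the list of immature or PP-rich beta cell genes, gave -1.98 and -1.25, Fam159b -1.49 and -1.22, and Ap4s1 -1.24 and -1.25. The summed levels of the other islet hormones were also lower in both libraries, Gcg by log2 ratios of -0.88 and -1.64, Pyy of -1.81 and -1.11, and Ppy of -1.59 and -0.84. Gcg in WT turned to 0.58 without barcodes of a second hormone and to 0.15 for the mean CPM over barcodes, and the median WT barcode held more glucagon (0.619% against 0.0535%) and PP (0.554% against 0.401%) among the selected ones. Under 3000 nuclear-encoded UMIs Gcg gave 0.020 and 0.052, Pyy 0.28 and -0.41, and Ppy 0.37 and -0.12.

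**Figure D4:**
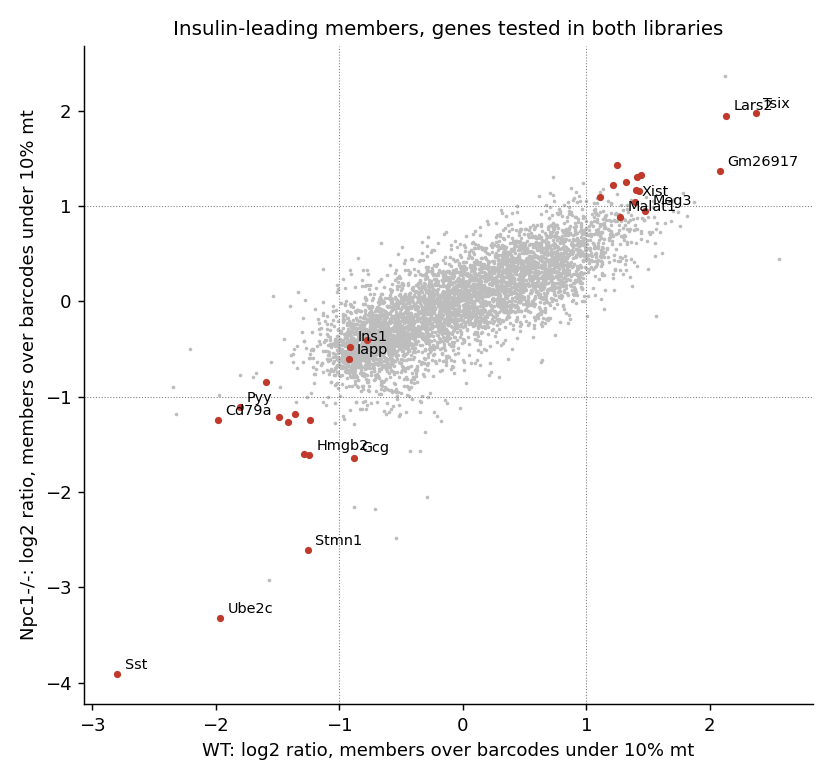
Log2 ratio of each gene's CPM in high mitochondrial insulin-leading barcodes over that in insulin-leading barcodes under 10%, relative to the median gene, in WT (x axis) and Npc1-/- (y axis). Grey points are all genes measured in both libraries and red points the named ones, with Tsix (2.37, 1.98) and Lars2 (2.13, 1.95) at the upper right and Sst (-2.80, -3.91) at the lower left.

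Transcripts of the protein synthesis machinery and of the nuclear-encoded respiratory chain had list medians below the median gene, with few genes at least 2-fold lower (over all genes, 3.24% in WT and 1.26% in Npc1-/-). The genes named in this and the next paragraphs as those past 2-fold were picked after their values were seen, other than those of the fixed rule. Of 80 cytosolic ribosomal protein genes 2 were at least 2-fold lower in WT (median log2 -0.82) and none in Npc1-/- (-0.51), and none was higher. Rpl17 gave -0.95 and -0.71 and Rpl19 -0.88 and -0.57. Of the nuclear-encoded subunits of oxidative phosphorylation (OXPHOS), 5 of 76 were lower in WT (median -0.80), 3 of them subunits of ATP synthase (Atp5o, Atp5c1 and Atp5g3), and 0 of 75 in Npc1-/- (-0.47), with Cox8a of cytochrome c oxidase at -0.78 and -0.61 and Ndufb8 of complex I at -0.85 and -0.82. Mitochondrial ribosomal protein genes gave 6 of 61 lower (median -0.71) and 0 of 59 (-0.38), translation factors 1 of 16 (Eif3i, median -0.82) and 0 of 16 (-0.47), and cytoskeletal genes 4 of 12 (-0.87) and 5 of 12 (-0.67), all of them tubulins or Stmn1. No glycolytic gene of 10 passed 2-fold (medians -0.58 and -0.25). The translation elongation factor Eef1a1 gave -0.93 and -0.45 and the glycolytic enzyme Gapdh -0.98 and -0.77. In barcodes from 50% mitochondrial share Gapdh gave -3.42 and -2.64. Summed over each list, ribosomal protein genes went from 40870 CPM under 10% to 23735 from 50% in WT and from 43740 to 23058 in Npc1-/-, and OXPHOS genes from 12607 to 7477 and from 12848 to 7085.

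For genes that act on or inside mitochondria in other roles, few passed 2-fold in each list, as was so over all genes. Over all genes 7.38% were higher and 3.24% lower in WT, and 1.3% and 1.26% in Npc1-/-, so these counts do not set the lists apart. No mitochondrial chaperone or protease of 10 passed 2-fold in either library (medians -0.01 and -0.25). Of the genes for mitochondrial DNA maintenance and transcription, 1 of 7 and 1 of 5 were at least 2-fold higher and none lower, the higher one in both libraries being Polg, the mitochondrial DNA polymerase (1.11 and 1.15), while Tfam, which packages mitochondrial DNA, gave -0.82 and -0.94. Mitophagy genes gave 1 of 14 lower in WT, the autophagosome gene Map1lc3a at -1.02, and none of 13 in Npc1-/- (medians -0.52 and -0.54), apoptosis genes 2 of 10 and 1 of 10 lower (-0.24 and -0.18), of which Cycs, cytochrome c, gave -1.34 in WT, and genes of the integrated stress response none of 10 and none of 8 (-0.37 and 0.15). Cdkn1a, a p53 target in the apoptosis list, gave -2.33 and -1.18 from 11 and 16 UMIs. Immediate early and heat shock genes gave 1 of 17 lower in WT (Ier2, median of the list -0.24) and 1 of 14 higher in Npc1-/- (0.19), the latter being Fosb, a transcription factor subunit, at 0.73 and 1.31.

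Genes of the beta cell program differed among themselves. Beside the counts below stand the shares over all genes, 7.38% higher and 3.24% lower in WT and 1.3% and 1.26% in Npc1-/-. A single gene past 2-fold in a list is therefore a description of that gene and not of its list. Iapp, the amyloid polypeptide secreted with insulin, was at 36291 CPM against 47529 in WT (log2 -0.92) and 38093 against 46971 in Npc1-/- (-0.61), close to Ins1 (-0.91 and -0.47) and Ins2 (-0.78 and -0.41). Genes of beta-cell maturity were nearer to the median gene, with 1 of 17 higher in WT (Gipr) and 1 of 17 lower in Npc1-/- (Trpm5), and medians of 0.05 and 0.08. Gipr, the receptor of the incretin GIP, stood at 196 CPM against 52.2 (1.38) and 135 against 60.2 (0.87), and Abcc8, the sulphonylurea receptor of the ATP-sensitive potassium channel, at 512 against 197 (0.85) and 520 against 255 (0.73). The summed maturity list went from 2878 CPM under 10% to 7241 from 50% in WT and from 2703 to 6647 in Npc1-/-. ER folding genes gave 2 of 32 (Spcs1 and Ddost) and 1 of 32 (Sdf2l1) lower, with medians of -0.66 and -0.22, and granule cargo and processing genes 1 of 18 (Resp18) and 0 of 18 lower (-0.56 and 0.00). Genes of immature or PP-rich beta cells gave 4 of 8 lower and 1 higher in WT (median -0.82) and 3 of 8 lower in Npc1-/- (-0.81), with Pyy and Tspan8 lower in both and Npy higher in WT (1.45). Lysosomal and sterol genes gave 1 of 22 higher in WT, which was Npc1 itself (22.1 against 6.39 CPM, 1.28, from 36 UMIs), and none of 22 in Npc1-/- (-0.28 and 0.00).

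**Figure D5:**
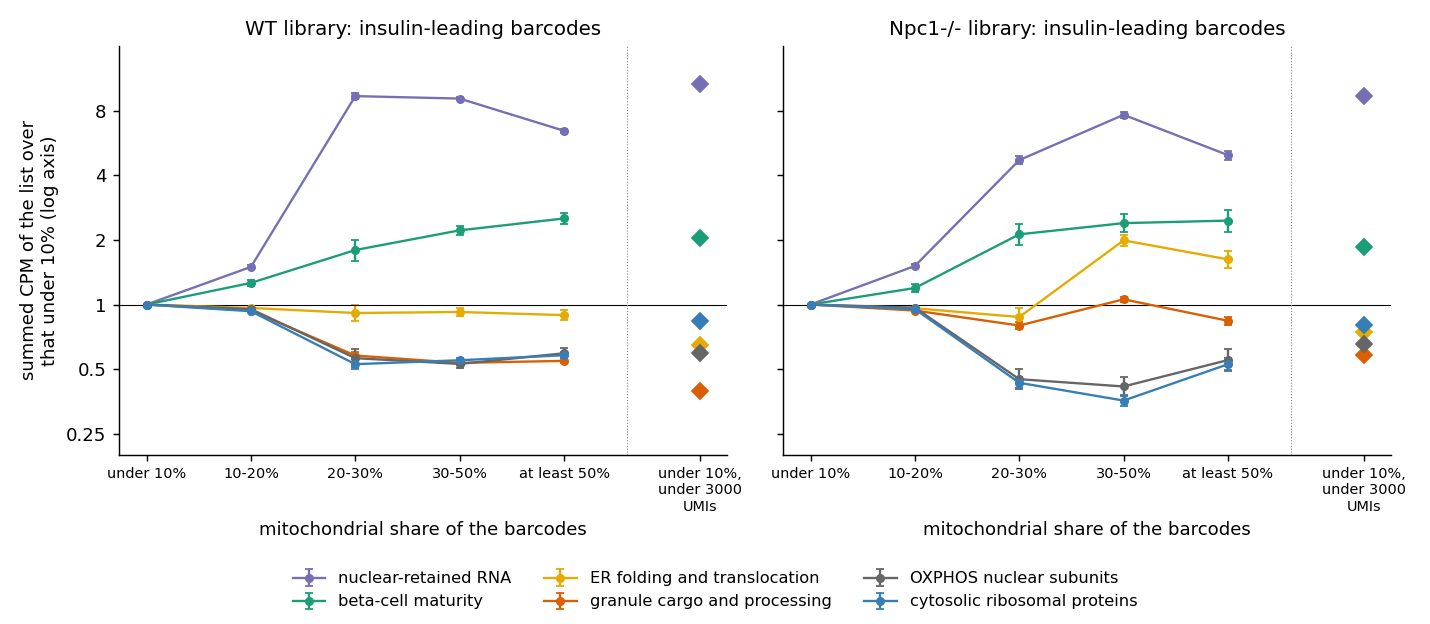
Summed CPM of 6 gene lists over their level in insulin-leading barcodes under 10% (y axis, log scale), by step of mitochondrial share (x axis) in the WT and Npc1-/- libraries, with exact 95% intervals, and as diamonds the insulin-leading barcodes under 10% with fewer than 3000 nuclear-encoded UMIs. Nuclear-retained RNA reaches 9.34 times (WT, 20 to 30%) and 7.65 times (Npc1-/-, 30 to 50%) its level under 10%, and its diamonds stand at 10.7 and 9.36 times.

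Markers of other cells moved with these results in both directions. Markers of delta cells were lower, at 613 CPM against 2646 in WT and 615 against 3177 in Npc1-/-, with Sst, which was higher in the selected barcodes under 3000 nuclear-encoded UMIs, giving the most UMIs of them, and markers of cycling cells were lower at 191 against 277 and 79.6 against 221. Endothelial markers summed to 123 CPM against 51.0 in WT and to 64.8 against 70.1 in Npc1-/-, B cell markers to 90.3 against 63.1 and 35.0 against 68.3, and T cell and neutrophil markers to under 5 CPM in every group. The haemoglobin gene Hbb-bs, the erythroid marker with the most UMIs, gave -1.57 and -2.92, but 1.25 in WT with nuclear-encoded denominators and 1.99 in Npc1-/- for at least 20% against under 5%. In the list of digestive enzymes, made by the exocrine pancreas, 6 of 10 measured genes were at least 2-fold higher in WT (median 1.22) and 1 of 3 in Npc1-/- (0.97). Over all genes 7.38% and 1.3% were higher. A gene was measured at 20 CPM in either group, which favours higher genes. In Npc1-/- Reg1 (30.8 against 12.2 CPM) and Pnliprp1 (42.5 against 17.7) reached 20 CPM only in the selected barcodes, so these counts and medians are a description. The list's sum went from 181 CPM under 10% to 860 from 50% in WT and from 172 to 950 in Npc1-/-. Reg1 gave 0.95 and 1.06, Pnliprp1 1.33 and 0.97, and Ctrb1 0.96 and 0.14. In WT the median of this list turned to -1.92 above 1000 genes and to -0.62 with barcodes under 10% weighted to the depth of the selected ones, and Reg1 (-1.75 and -0.88), Pnliprp1 (-2.25 and -0.28) and Ctrb1 (-1.92 and -0.62) turned with it, as did Reg1 in Npc1-/- above 1000 genes (-0.45). In insulin-leading barcodes under 10% with fewer than 3000 nuclear-encoded UMIs the sum was 6.03 times (WT) and 8.92 times (Npc1-/-) that of all insulin-leading barcodes under 10%. The order by depth differed between the libraries, and whether a few barcodes carried these sums was not examined. At 3000 to 10000 nuclear-encoded UMIs the barcodes under 10% held 2082 CPM in WT, above the 1090 CPM of those under 3000. In Npc1-/- they held 39.8 CPM against 1533. The part of RNA from other cells in the levels above was not tested.

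Since most selected barcodes were shallow, insulin-leading barcodes under the same ceiling of depth were compared, a comparison added after the values were seen. Under 3000 nuclear-encoded UMIs there were 389 selected barcodes in WT and 90 in Npc1-/-, with medians of 1184 and 1034 mitochondrial UMIs, and 268 and 110 barcodes under 10%, with medians of 20.5 and 24.5. The second set thus had few molecules of either genome. Several of the levels that set the selected barcodes apart above were found in it too. Insulin made up 20.3% of nuclear-encoded UMIs against 23.6% in the selected barcodes in WT, and 20.7% against 27.1% in Npc1-/-. Malat1 stood at 70301 CPM under 10% against 54905 in the selected barcodes in WT and at 62496 against 46537 in Npc1-/-. Nuclear-retained RNA summed to 87321 CPM against 70241 and 77187 against 58682, and beta-cell maturity genes to 5848 against 6279 and 5008 against 5988. OXPHOS genes summed to 7469 against 7164 and 8408 against 7103, and ribosomal protein genes to 34388 against 25107 and 34936 against 24828. The high nuclear-retained RNA and the low insulin share of the selected barcodes were therefore found as well in shallow barcodes with hardly any mitochondrial UMIs, while other genes differed, among them those of the ER and granule lists.

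Selected insulin-leading barcodes from 10000 nuclear-encoded UMIs lay near the 10% limit. Their median mitochondrial shares were 11.3% in WT and 11.2% in Npc1-/-, against 4.32% and 4.56% under 10%. They therefore do not describe levels at higher shares. From 10000 nuclear-encoded UMIs, 40 selected WT barcodes had Malat1 at 6797 CPM against 6258 under 10%, insulin at 53.7% against 54.0% and ribosomal protein genes at 37681 against 40804 CPM. In Npc1-/-, 29 selected barcodes had 6212 against 6513 CPM, 51.7% against 51.5% and 42571 against 43697 CPM. Other lists differed at this depth. Genes of immature or PP-rich beta cells summed to 3391 against 11053 CPM in WT and 11439 against 17966 in Npc1-/-, Sst stood at 55.0 against 2132 and 68.9 against 2556 CPM, and digestive enzymes summed to 28.0 against 159 and 65.99 against 171 CPM. Between 3000 and 10000 the groups stood apart, with Malat1 at 31403 CPM in 16 selected WT barcodes against 6135 in 79 under 10%, and at 33764 in 21 against 5125 in 110 in Npc1-/-.

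Under the ceiling of 3000, the lists of ER and granule transcripts had medians above the median gene in the selected barcodes of both libraries. In WT 464 of 7716 genes were at least 2-fold higher (6.01%) and 446 lower (5.78%), and in Npc1-/- 1287 of 8017 were higher (16.1%) and 1002 lower (12.5%), with far fewer UMIs behind the latter. Of 32 ER folding and translocation genes 4 were higher in WT (median log2 0.53) and 22 in Npc1-/- (1.24), and none was lower. Among them Pdia3, a disulphide isomerase, stood at 235 CPM against 111 in WT (log2 1.13, 0.60 to 1.73) and 633 against 152 in Npc1-/- (2.25, 1.55 to 3.06). Canx, the lectin chaperone calnexin, stood at 297 against 151 (1.03, 0.56 to 1.53) and 681 against 250 (1.64, 1.06 to 2.28). Pdia3 and Canx were picked after their values were seen. Of the granule genes 1 of 18, a share under that of all genes, and 12 of 19 were higher (medians 0.43 and 1.08). Digestive enzymes gave 5 of 15 higher in WT (0.65) and 2 of 14 in Npc1-/- (0.05), and lysosomal and sterol genes 0 of 24 (0.06) and 8 of 23 (0.86). Chga, the granule protein chromogranin A, stood at 4467 against 2217 CPM (1.07, 0.95 to 1.20) and 19048 against 3953 (2.48, 2.34 to 2.62). With the hormone share taken over nuclear-encoded UMIs the medians were smaller, 0.34 and 0.61 for the ER list, with 0 and 6 of 32 genes at 2-fold, and 0.38 and 0.44 for the granule list, with 0 and 3 of 18. Digestive enzymes then gave 2 of 15 higher in WT (-0.063) and 0 of 15 in Npc1-/- (0.13). Lysosomal and sterol genes gave 0 of 24 (0.066) and 3 of 24 (0.24). On that scale 4.13% of genes were higher and 4.87% lower in WT, and 10.2% higher and 9.7% lower in Npc1-/-. Genes that were lower in both libraries, also picked after their values were seen, included markers of other tissue cells, Plvap of endothelium (32 against 83 CPM in WT, 24 against 106 in Npc1-/-) and Sparc of matrix-producing cells (156 against 371 CPM in WT, 136 against 455 in Npc1-/-).

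Selected glucagon-leading barcodes lay closer to the 10% limit, with median mitochondrial shares of 17.6% in WT and 18.4% in Npc1-/- (13.01% and 14.1% for PP-leading ones), and were deeper, with a median of 4172.5 nuclear-encoded UMIs in WT and 3440 in Npc1-/- against 16312.5 and 18227 under 10%, and of 1074 and 1003 mitochondrial UMIs against 696.5 and 775. In WT 255 of 6342 genes were at least 2-fold higher (4.02%) and 208 lower (3.28%), and in Npc1-/- 235 of 6242 higher (3.76%) and 223 lower (3.57%). Nuclear-retained RNA was again higher, with 5 of 8 genes in WT (median 1.03) and 1 of 8 in Npc1-/- (0.66), and summed to 30644 CPM against 13099 and 25936 against 12951. Under 3000 nuclear-encoded UMIs this list summed to 56951 CPM in 13 selected WT barcodes against 8251 in 24 under 10%. In Npc1-/- it summed to 62297 CPM in 15 against 8038 in 19. Ribosomal protein genes there summed to 25914 against 135063 and 52175 against 130784 CPM. From 10000 nuclear-retained RNA stood at 15622 against 13105 CPM in WT and, in the other order, at 10852 against 12944 in Npc1-/-. Ribosomal protein genes had medians of -0.70 and -0.61 and OXPHOS genes of -0.58 and -0.53, with 0 of 75 and 4 of 75 at least 2-fold lower. Glucagon kept most of its share, 29.4% of nuclear-encoded UMIs against 32.0% in WT and 26.1% against 31.1% in Npc1-/-, and insulin was at 2.66% against 1.13% and 1.78% against 0.767%. Selected PP-leading barcodes, of which there were 21 and 25, had 425 of 6061 genes at least 2-fold higher (7.01%) and 339 lower (5.59%) in WT and 315 of 6104 higher (5.16%) and 261 lower (4.28%) in Npc1-/-. None of 6 and none of 7 nuclear-retained RNAs passed 2-fold there (medians 0.40 and 0.52). Over all depths together, the median of nuclear-retained RNA lay above the median gene in the insulin, glucagon and PP classes alike. The ribosomal and OXPHOS medians lay below it, with PP medians of -0.28 and -0.29 for ribosomal protein and -0.36 and -0.34 for OXPHOS genes. Under 3000 nuclear-encoded UMIs the classes parted. There the insulin medians of nuclear-retained RNA were -0.21 in WT and -0.28 in Npc1-/-, while the glucagon sums stayed higher in the selected barcodes.

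Selected barcodes without a leading hormone were compared with insulin-leading barcodes under 10%, since insulin was the hormone most abundant in them. In WT 1264 of 7785 genes were at least 2-fold higher (16.2%) and 1835 lower (23.6%), and in Npc1-/- 1317 of 8052 higher (16.4%) and 1484 lower (18.4%). All 8 nuclear-retained RNAs were higher in both libraries, 78 of 80 ribosomal protein genes were lower in WT (median -1.48) and 46 of 80 in Npc1-/- (-1.05), and OXPHOS genes were lower at 74 of 77 (-2.04) and 71 of 76 (-1.67). ER folding genes were lower at 28 and 26 of 32. The insulin-leading barcodes under 10% were mostly deep, and some of these directions turned under 3000 nuclear-encoded UMIs. There the ER list summed to 6667 CPM in selected barcodes without a leading hormone against 5860 in insulin-leading barcodes under 10% in WT and to 6474 against 5615 in Npc1-/-, and nuclear-retained RNA to 83949 against 87321 and 81508 against 77187. Against barcodes under 10% that also lacked a leading hormone, 26.9% of genes were higher and 28% lower in WT and 23.1% and 22.7% in Npc1-/-, but those barcodes were largely other cell types. By 3 or more markers other than hormones, 435 of them in WT and 441 in Npc1-/- were endothelial-like and 257 and 274 stellate-like, and 150 in WT were B cell-like.

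Few of the selected barcodes without a leading hormone carried such markers. In WT 617 of 869 (71.0%) and in Npc1-/- 373 of 488 (76.4%) had no type with 3 markers. Those with beta cell markers numbered 167 in WT, of which 133 had exactly 3, and 31 in Npc1-/-, of which 24 had exactly 3. Endothelial-like barcodes numbered 14 and 16 and stellate-like ones 12 and 21, which was 3.12% and 3.50% of all hormone-free endothelial-like barcodes and 4.46% and 7.12% of stellate-like ones. Acinar-like barcodes were selected most often among the non-endocrine types, at 6 of 10 in WT and 16 of 26 in Npc1-/- (60.0% and 61.5%). Their number was small, 3 of the 6 and 10 of the 16 had exactly 3 markers, and they were shallow (medians of 1375 and 1113 nuclear-encoded UMIs), as were some of the insulin-leading barcodes with more digestive enzyme RNA described above. From 50% mitochondrial share in WT the summed beta cell markers, hormones included, stood at 216456 CPM, with Ins2 and Ins1 giving the most UMIs, while endothelial and macrophage markers stood at 39.8 CPM each, against 6983 CPM for endothelial markers under 10%. Beta-cell maturity genes, which the rule for hormones did not use, had a median of 9 UMIs per selected barcode in WT and 6 in Npc1-/- against 1 under 10%. Under 3000 nuclear-encoded UMIs their sum was 6700 CPM in WT and 6055 in Npc1-/- in selected barcodes without a leading hormone, beside 5848 and 5008 in insulin-leading barcodes under 10%. It was 954.5 and 841.9 in the 85 and 66 barcodes under 10% without a leading hormone, which were deeper (medians of 1163 and 930 genes against 748.5 and 639.5) and from which the hormone rule leaves out insulin cells, so this last contrast is a description.

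Between the libraries, selected insulin-leading barcodes differed at 95 genes at least 2-fold higher in Npc1-/- (1.61% of 5906) and 138 lower (2.34%), with no replicate check. Immediate early and heat shock genes were lower, with 8 of 17 at least 2-fold and none higher (median -0.77), and their sum was 1710 CPM in Npc1-/- against 2918 in WT. Fosb stood at 37.2 against 119 CPM (log2 -1.54, -2.12 to -1.03), and the stress genes Fos (77.5 against 211 CPM) and Hspa1a (46.7 against 163 CPM), picked after their values were seen, went the same way. The list was at 1463 CPM in Npc1-/- and 2557 in WT in barcodes under 10% as well. Genes of immature or PP-rich beta cells gave 4 of 9 higher and 1 lower (median 0.91), among them Pyy (7210 against 3211 CPM, log2 1.29) and Ppy (3402 against 1405 CPM, 1.40), and this list too stood higher in Npc1-/- under 10%, at 18029 against 11040 CPM. In the selected barcodes the list summed to 10077 against 8113 CPM under 3000 nuclear-encoded UMIs. From 10000, in 29 and 40 barcodes, it summed to 11439 against 3391 CPM. Digestive enzymes gave 6 of 10 lower (median -1.03), granule genes 2 of 18 higher (0.37) and nuclear-retained RNA 1 of 8 lower (-0.58). The digestive enzyme sum was lower in Npc1-/- only under 3000 nuclear-encoded UMIs, at 1307 against 1820 CPM. It was higher at 3000 to 10000, at 325 against 196 CPM in 21 and 16 barcodes. From 10000 it was higher too, at 65.99 against 28.0 CPM. Npc1 was at 5.31 CPM from 5 UMIs against 22.1 from 36. In selected barcodes without a leading hormone 3.19% of 8462 genes were higher in Npc1-/- and 2.23% lower, and markers of other cells differed most, with endothelial markers at 2359 against 910 CPM (7 of 8 at least 2-fold higher) and macrophage markers at 76.1 against 854 CPM (7 of 7 lower). Each library had 2 macrophage-like barcodes in this class, those of WT deeper (medians of 9468 and 1246.5 nuclear-encoded UMIs), and from 50% mitochondrial share the order was the other way round (131.6 CPM in Npc1-/- and 39.8 in WT). Differences in the mix of cells and in the level per cell cannot be told apart from 1 library each.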

How the data were processed

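Islets of 2-week-old WT and Npc1-/- mice were sequenced as 3′ single-cell libraries. The labels name a version 3 kit and the study's methods version 2. Per the submitters' processing notes, reads were processed with Cell Ranger 3.1.0 and Seurat 4.0.3 on mm10. The deposited values were raw UMI counts per gene and barcode from the filtered matrices the authors made, with 31053 genes listed. The study removed doublets and cells at 10% or more mitochondrial UMIs, but that step was not applied to the matrices used here, and no doublet caller was run, so barcodes with a second hormone were counted instead.

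UMIs were summed over barcodes and scaled to CPM of nuclear-encoded UMIs, 0.5 counts were added, and log2 ratios were taken relative to the median gene over genes that reached 20 CPM in at least 1 of the groups. Tags count molecule ends and are not scaled by length, so an order of genes by UMIs is not one of transcript levels. With 1 library per genotype no p-value was computed. Exact intervals (Clopper-Pearson for a share, Poisson for a count, a conditional binomial for a ratio) reflect counting error alone. Sums and intervals were computed with pandas 2.3.3, numpy 2.4.6 and scipy 1.17.1 under Python 3.11.15, and TMM factors, an alternative, from the counts with edgeR 4.0.16 under R 4.3.3. Scripts were tested on simulated data.

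Members, gene lists and comparisons were chosen with earlier results of these data known. Named genes were Npc1, the hormones and Iapp, the 13 mt- genes, Malat1, Neat1, Xist and Meg3, the top 10 and bottom 10 genes by ratio among those on the same side in both libraries under each alternative but those added later (of which the setting from 50% put Spc24 at 0.32 and Olfr1322 at -0.55 in Npc1-/-), and from each list the 2 genes with the most UMIs and its 2 with the largest ratio. Others are named as picked after their values were seen. Some genes that the rule names are not reported here. Gene positions are from GENCODE for mm10. Alternatives changed the limits on genes, mitochondrial share and UMIs, the hormone denominator, the scaling, the weighting of barcodes, the filter on low values and the depth.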

Additional observations from a re-analysis of the deposited data

Results flagged for a closer look

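Hspa5, the ER chaperone BiP, lay on opposite sides of the median gene in the libraries when high mitochondrial insulin-leading barcodes were set against those under 10%, with a log2 ratio of -0.38 in WT and 0.17 in Npc1-/-. Chga did the same, at -0.53 in WT and 0.25 in Npc1-/-. Each rests on 1 library per genotype, and the difference was not tested. In Npc1-/- a single barcode gave 4.92% of the Chga UMIs of the selected barcodes, and without it the level was 10557 CPM against 10930 with it. With the hormone share taken over nuclear-encoded UMIs both genes were below the median gene in Npc1-/- too, Hspa5 at -0.23 and Chga at -0.26. With barcodes under 10% weighted to the depth of the selected ones the WT values were 0.060 and 0.029, and under 3000 nuclear-encoded UMIs both genes were above the median gene in both libraries, Hspa5 at 0.62 in WT and 2.14 in Npc1-/- and Chga at 1.07 and 2.48, so the opposite signs did not hold under these 3 settings.

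Barcodes with 500 or fewer genes, which no comparison of gene levels used, held a large share with at least 10% mitochondrial UMIs, 60.6% (58.4 to 62.7, 1233 barcodes) in WT and 80.4% (78.6 to 82.0, 1689 barcodes) in Npc1-/-.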

How the results depend on the processing

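Depth limits what these libraries show, since most selected barcodes held under 3000 nuclear-encoded UMIs and each genotype had 1 library. No paired analysis was possible because each genotype had 1 library and no test was run. The share of high barcodes was 26.4% (WT) and 23.3% (Npc1-/-) from 200 genes (ratio 0.882), 6.19% and 4.18% from 1000 (0.675), 41.6% and 39.9% at a limit of 5% (0.960), 18.7% and 9.97% at 20% (0.535), and 30.7% and 31.3% with no minimum of genes (1.02, the other direction). Among insulin-leading barcodes these were 23.1% and 13.8% (0.597), 4.01% and 2.73% (0.681), 37.8% and 38.2% (1.01, the other direction), 13.6% and 3.21% (0.237), and 30.8% and 25.1% (0.814), and with nuclear-encoded denominators 35.5% and 18.7% (0.527), where insulin-leading barcodes made up 88.4% and 74.5% of the selected ones. Genes at least 2-fold higher in WT, 416, became 82 above 1000 genes, 1140 for at least 20% against under 5%, 829 with nuclear-encoded denominators, 197 with TMM, 24 with barcodes under 10% weighted to the depth of the selected ones, 814 from 5 CPM, 64 for 10 to 20% alone and 1276 from 50%. Lower in WT, 183 became 42, 1716, 1304, 551, 60, 540, 32 and 1791 under the same settings, 345 without hormones in the total, 1366 for the mean CPM of barcodes and 446 under 3000 nuclear-encoded UMIs. Higher in Npc1-/-, 69 became 35, 895, 488, 42, 36, 354, 28 and 1696, and 169, 775 and 1287 under the last 3. Lower in Npc1-/-, 67 became 1546 for at least 20% against under 5%, 566 with nuclear-encoded denominators, 165 without hormones in the total, 1212 for mean CPM, 295 from 5 CPM, 40 at 10 to 20%, 2016 from 50% and 1002 under 3000. The settings of 10 to 20%, from 50%, no minimum of genes and under 3000 were added after the values were seen, and the cause of these changes was not tested. Leaving aside the settings added later, medians of lists that changed side were those of immediate early and heat shock genes in WT (0.011 with nuclear-encoded denominators, 0.032 for mean CPM), lysosome and sterol in WT (0.049 above 1000 genes, 0.018 depth-weighted), digestive enzymes in WT (-1.92 and -0.62) and ER folding in Npc1-/- (0.046 depth-weighted). Under 3000 nuclear-encoded UMIs more did so, among them nuclear-retained RNA (-0.21 in WT, -0.28 in Npc1-/-), ER folding (0.53 and 1.24), glycolysis (0.18 and 0.58), and in WT granule (0.43) and OXPHOS genes (0.091). Above 1000 genes Ulk1 (-0.58), G6pc2 (0.11), Ctrb1 (-1.92), Pnliprp1 (-2.25) and Reg1 (-1.75) changed side in WT and Reg1 (-0.45) in Npc1-/-. Depth-weighted, Malat1 (-0.00097), Hspa5 (0.060), Chga (0.029), Psap (0.069), G6pc2 (0.026), Ctrb1 (-0.62), Pnliprp1 (-0.28) and Reg1 (-0.88) did so in WT. Others were Gcg in WT (0.58 without barcodes of a second hormone, 0.15 for mean CPM), Reg1 in WT (-0.090) and Hbb-bs in Npc1-/- (1.99) for at least 20% against under 5%, and Hbb-bs in WT (1.25), Hspa5 (-0.23) and Chga (-0.26) in Npc1-/- with nuclear-encoded denominators. In all, 268 values of list medians moved by no more than the typical counting error of 1 of the list's genes, 104 moved further and 7 changed side, and for named genes 1092 stayed within the gene's own interval, 717 moved further and 21 changed side.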

Other observations

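Genes lower by at least 2-fold in both libraries in selected barcodes without a leading hormone, set against insulin-leading barcodes under 10%, were compact. The 1307 such genes had a median genomic span of 10580 bases and a median exonic length of 1892 bases, the 820 genes that were higher in both had 35599 and 4424 bases, and all 7314 genes measured in both had 26880.5 and 3678 bases. In the comparison within insulin-leading barcodes the 31 genes higher in both had a median span of 22889 bases, under the 25262 of all 4987 genes, and the 20 lower in both had 7224.5 bases. Their median exonic length went the other way for the higher genes, at 4306 bases against 3510 for all genes, and was 1647 for the lower ones. This is a description over genes, which are not independent.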
